A study of Mus musculus with 2 samples.

Results

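Semaphorins, plexins and neuropilins were measured by total RNA sequencing of mouse forebrain at embryonic day 15.5. The set held 31 of the 43346 mouse genes in the tables, taken by gene family: 20 semaphorins, 9 plexins and 2 neuropilins. All 31 were found by symbol. The study has 1 group with 2 libraries, from a pool of 78 embryos (replicate 1) and a pool of 62 embryos (replicate 2). Both pools were of strain B6NCrl with the sexes mixed, and the labels name no treatment and no altered allele. Each library was made from 10 ng of RNA longer than 200 nucleotides with spike-in RNA added. A pool averages over its embryos, and no other region, age or genotype was measured. Levels are therefore described and set against the difference between the pools. No test was run, since with 2 libraries the smallest p of a two-sided exact sign-flip test is 0.5.

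Semaphorins are guidance proteins that steer growing axons and migrating neurons, usually by repelling them. Class 3 semaphorins are secreted, classes 4 to 6 span the membrane and class 7 is held by a lipid anchor. Plexins are the receptors that carry the signal into the cell through a domain acting on small GTPases. Most class 3 semaphorins first bind a neuropilin, which has only a short cytoplasmic tail and pairs with an A-type plexin. In the developing forebrain the family is known for shaping the corpus callosum, corticofugal tracts, interneuron migration and blood vessels.

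Replicate 1 held 38720511 expected counts and replicate 2 held 35103430, of which 82967 and 79094 fell on the 31 genes. The members had 15 to 13666 reads in replicate 1 and 14 to 13510 in replicate 2. The labelled tissue was checked by its markers: all 5 telencephalic genes (Lhx2, Emx1, Nr2f1, Neurod6, Dlx1) stood above 10 TPM, and none of 5 midbrain and hindbrain genes reached 1 TPM. No read of En2 or Hoxb8 was counted in either library, and 3 reads in replicate 1 would correspond to 0.0373 TPM for En2 and 0.0928 TPM for Hoxb8. Neuronal markers summed to 3622 and 3535 TPM, radial glial markers to 2016 and 1869 TPM, endothelial markers to 140 and 149 TPM, microglial markers to 80.8 and 79.98 TPM, pericyte markers to 39.1 and 38.7 TPM and meningeal and mesenchymal markers to 133 and 143 TPM. Oligodendrocyte lineage markers summed to 75.55 and 65.37 TPM, with the late myelin gene Mag at a mean of 0.75 TPM. TPM is a level corrected for transcript length and scaled to the same sum in each library. Neurons, glia and vessels were measured together, so fewer cells of a type and less RNA per cell cannot be told apart in any value.

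Nearly the whole family was present. Of the 31 members, 28 were at 1 TPM or more in both libraries, beside 60.6% of 21474 protein-coding genes. At 10 TPM or more in both libraries there were 21 members, beside 40.9% of protein-coding genes. The 3 members below 1 TPM in a library were Sema3d, Sema3g and Plxnb3. Receptors made up 58.1% of the family's summed TPM and semaphorins 41.9%, on average over the libraries. The receptor sum was 380 TPM in replicate 1 and 400 TPM in replicate 2 over 11 genes, and the semaphorin sum was 282 and 281 TPM over 20 genes. The median receptor exceeded the median semaphorin by 0.97 in replicate 1 and 1.16 in replicate 2 on the log2(TPM + 0.1) scale, a mean of 1.07 ± 0.13 (SD, n = 2), or 2.10-fold. The difference was larger than the spread between the pools, which does not measure the spread between genes. Mean levels overlapped widely, from 0.125 to 91.1 TPM over receptors and from 0.47 to 31.8 TPM over semaphorins.

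**Figure D1:**
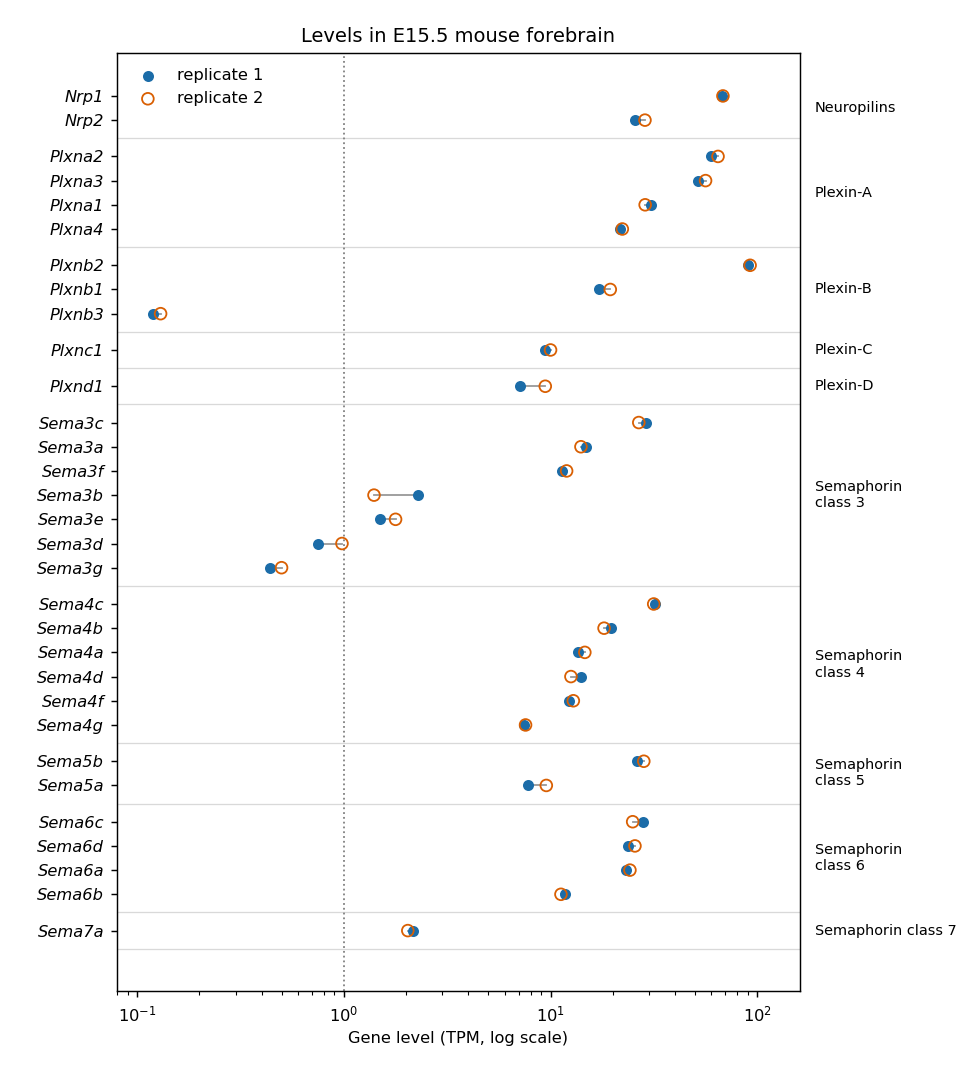
Level of each of the 31 genes in TPM on a log axis, grouped by class, with replicate 1 as filled points, replicate 2 as open circles and the dotted line at 1 TPM. Plxnb2, at 89.9 and 92.3 TPM, lies farthest right and Plxnb3, at 0.12 and 0.13 TPM, farthest left, and the pools lie close together for most genes.

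Both neuropilins were well expressed, with Nrp1 above Nrp2. Nrp1 (ENSMUSG00000025810.8, chromosome 8, 128358604 to 128503363, plus strand, GRCm38) is the binding receptor for Sema3a and also binds VEGF. It stood at 67.2 TPM in replicate 1 and 68.2 TPM in replicate 2. Nrp2 (ENSMUSG00000025969.11, chromosome 1, 62703285 to 62818695, plus strand), the receptor that prefers Sema3f, stood at 25.5 and 28.6 TPM. Nrp1 was above Nrp2 in both libraries, by a log2 ratio of 1.33 ± 0.10 (SD, n = 2), or 2.51-fold. Together the neuropilins held 94.8 ± 2.89 TPM (SD, n = 2), 14.1% of the family's sum.

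Nrp2 is made in forms that differ in the membrane span and the cytoplasmic tail, because transcripts end in either of a pair of final exons. The last 60 coding bases of Nrp1 and of each Nrp2 ending are shown because the forms part here. They are from GENCODE M21 transcripts on GRCm38, written 5′ to 3′ on the plus strand, with the last 3 sense codons and the stop codon in capitals.
Nrp1, chr8:128502755-128502814: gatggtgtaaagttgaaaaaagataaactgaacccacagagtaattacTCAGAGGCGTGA
Nrp2 distal exon, chr1:62815578-62815637: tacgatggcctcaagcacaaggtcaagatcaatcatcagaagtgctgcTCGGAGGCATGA
Nrp2 proximal exon, chr1:62795930-62795989: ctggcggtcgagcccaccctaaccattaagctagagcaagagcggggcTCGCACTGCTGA
Nrp1 and the distal Nrp2 ending shared 31 of 60 bases at the same positions, and their last 3 encoded residues were identical in 3 of 3 places. This ending is the known binding motif of the PDZ protein Gipc1. Nrp1 and the proximal Nrp2 ending shared 18 of 60 bases and 1 of the last 3 residues.

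The distal ending, shared in type with Nrp1, prevailed in forebrain. Protein-coding Nrp2 transcripts with the distal exon summed to 16.2 TPM in replicate 1 and 16.7 TPM in replicate 2, a mean of 16.5 ± 0.361 (SD, n = 2). Those with the proximal exon summed to 6.98 and 8.74 TPM, a mean of 7.86 ± 1.24. The distal form thus held 69.9% and 65.7% of protein-coding Nrp2 TPM, and the log2 ratio of distal over proximal was 1.22 and 0.94, a mean of 1.08 ± 0.20, or 2.11-fold. The order was the same in both pools and the ratio exceeded the spread between them.

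A pair of shorter segments adds further Nrp2 forms. A cassette exon of 51 bases (17 codons) is used with the distal ending, and an extension of 15 bases (5 codons) at an upstream exon is used with either ending.
Nrp2 cassette exon, chr1:62812534-62812584: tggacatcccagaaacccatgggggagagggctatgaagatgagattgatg
Nrp2 extension, chr1:62786302-62786316: gtgaggattttaaag
Transcripts with the cassette summed to 3.55 TPM in replicate 1 and 3.60 TPM in replicate 2, or 15.3% and 14.1% of protein-coding Nrp2. Transcripts with the extension summed to 5.36 and 9.11 TPM, or 23.1% and 35.8%. The cassette share was close in both pools, whereas the extension share differed, most of all in the transcript Nrp2-203. Nrp2-203, distal with the extension, was estimated at 0 TPM in replicate 1 and 2.36 TPM in replicate 2, with intervals given in the deposited table of 0.00643 to 4.89 and 1.34 to 7.68 TPM. These intervals overlap, so the difference in Nrp2-203 was not resolved. Nrp2-204, which differs from it only by lacking the 15 bases, was the main transcript at 12.7 and 10.8 TPM, and its deposited intervals were 7.05 to 12.9 and 4.90 to 12.1 TPM. A transcript with a retained intron, Nrp2-207, added 2.30 and 3.15 TPM.

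**Figure D2:**
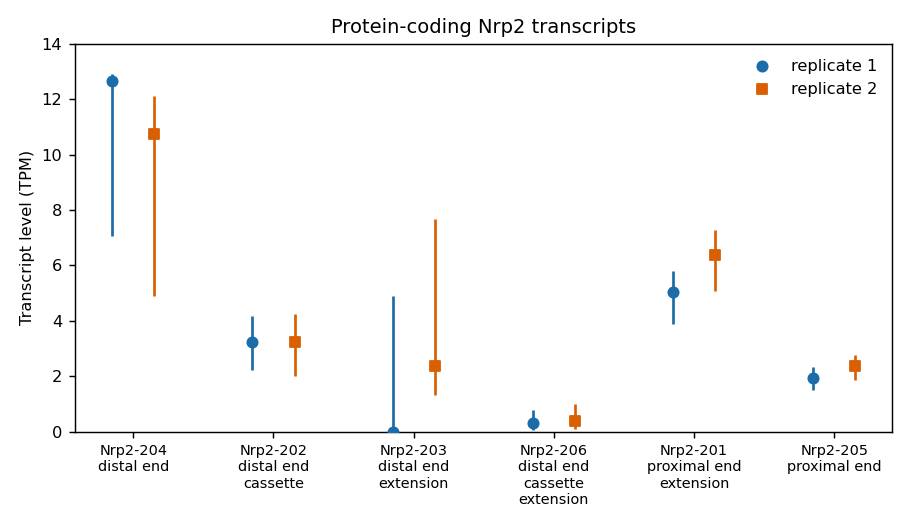
Level in TPM of the 6 protein-coding Nrp2 transcripts in replicate 1 (circles) and replicate 2 (squares), with the deposited intervals as lines, labelled by final exon, cassette exon and extension. Nrp2-204 is highest in both pools at 12.7 and 10.8 TPM, and the intervals of Nrp2-203 and Nrp2-204 are the widest.

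The A-type plexins, which carry class 3, 5 and 6 signals, formed the largest receptor class by summed TPM. They summed to 168 ± 5.58 TPM (SD, n = 2), 25.0% of the family. Plxna2 (ENSMUSG00000026640.8, chromosome 1, 194618218 to 194816869, plus strand), a receptor for Sema6a, was the highest of the class, at 59.8 TPM in replicate 1 and 64.6 TPM in replicate 2. Plxna3 (ENSMUSG00000031398.9, chromosome X, 74329066 to 74344689, plus strand), the partner of Nrp2 for Sema3f, followed at 51.9 and 56.2 TPM. Plxna1, which also serves Sema6d, stood at 30.5 and 28.7 TPM. Plxna4, the partner of Nrp1 for Sema3a, was the lowest of the class at 21.7 and 22.2 TPM. Relative to Plxna2, the log2 ratio was -0.20 ± 0.00 for Plxna3, -1.07 ± 0.14 for Plxna1 and -1.50 ± 0.05 for Plxna4 (SD, n = 2). The order Plxna2, Plxna3, Plxna1, Plxna4 held in both pools by gene TPM. By protein-coding TPM Plxna3 over Plxna2 was -0.89, and Plxna1, at 29.6 TPM on average, stood above Plxna3, at 28.7 TPM. By reads Plxna3 was the lowest of the class.

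The B-type plexins, which bind class 4 semaphorins and act on RhoA through the exchange factors Arhgef11 and Arhgef12, spanned the widest range. Plxnb2 (ENSMUSG00000036606.12, chromosome 15, 89155549 to 89180788, minus strand), known for its part in neural tube closure and progenitor proliferation, stood at 89.9 TPM in replicate 1 and 92.3 TPM in replicate 2, the highest gene level of the family. Plxnb1, the receptor of Sema4d, stood at 17.2 and 19.5 TPM. Plxnb3 (ENSMUSG00000031385.10, chromosome X, 73757090 to 73772514, plus strand), a Sema5a receptor known from oligodendrocytes, was the lowest member at 0.12 and 0.13 TPM, from 15 and 14 reads. Its 95% counting interval in replicate 1 was 0.0672 to 0.198 TPM. The log2 ratio of Plxnb1 over Plxnb2 was -2.31 ± 0.10, and that of Plxnb3 over Plxnb2 was -9.51 ± 0.05 (SD, n = 2). For Plxnb3 over Plxnb2 the SD of 0.05 is smaller than the counting error at 15 and 14 reads. By protein-coding TPM that ratio was -9.47 ± 0.61. The 3 genes of the class therefore differed among themselves far beyond the spread between pools.

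The remaining plexins were lower. Plxnc1, the receptor of Sema7a, stood at 9.40 TPM in replicate 1 and 10.0 TPM in replicate 2. Plxnd1, which binds Sema3e without a neuropilin and is known from vessels and corticofugal and striatal neurons, stood at 7.09 and 9.43 TPM. Plxnd1 was the receptor with the largest difference between the pools, described with the pool ratios.

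Class 3 semaphorins had a low median and a wide range. They summed to 58.8 ± 2.02 TPM (SD, n = 2), 8.76% of the family, with a median of 1.85 TPM over 7 genes. Sema3c, an attractant for callosal axons, was the highest at 29.0 TPM in replicate 1 and 26.7 TPM in replicate 2. Sema3a, the classical repellent of cortical axons, stood at 14.9 and 14.03 TPM. Sema3f, which repels through Nrp2, stood at 11.3 and 11.96 TPM. The other 4 class 3 genes were lower. Sema3b stood at 2.29 TPM in replicate 1 and 1.40 TPM in replicate 2, from 120 and 71 reads, with a mean of 1.85 TPM that was 3.08 TPM by posterior mean estimates. The Plxnd1 ligand Sema3e stood at 1.49 and 1.78 TPM. Sema3d was at 0.75 and 0.98 TPM, and Sema3g, known from vessels, was at 0.44 and 0.50 TPM from 46 and 48 reads.

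Sema3d, Sema3a, Sema3e and Sema3c lie in this order on chromosome 5. No annotated protein-coding gene lies in the 536 kb between Sema3d and Sema3a, and 1 lies in the 423 kb between Sema3a and Sema3e. The neighbours differed in level all the same, at means of 0.865 TPM for Sema3d, 14.5 TPM for Sema3a and 1.64 TPM for Sema3e. Sema3b and Sema3f, at 1.85 and 11.7 TPM on average, lie 72.3 kb apart on chromosome 9. Plxnb3 and Plxna3 lie 557 kb apart on chromosome X and had mean levels of 0.125 and 54.0 TPM.

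Class 4, whose members bind plexin-B receptors and have further roles in immune cells and at synapses, had the largest semaphorin sum, 98.2 ± 1.14 TPM (SD, n = 2), 14.6% of the family. All 6 members were above 5 TPM in both pools. Sema4c (ENSMUSG00000026121.9, chromosome 1, 36548639 to 36558349, minus strand), a Plxnb2 ligand, was the highest semaphorin, at 32.01 TPM in replicate 1 and 31.55 TPM in replicate 2. Sema4b stood at 19.6 and 18.1 TPM, Sema4a at 13.5 and 14.7 TPM and the Plxnb1 ligand Sema4d at 14.1 and 12.6 TPM. Sema4f stood at 12.3 and 12.9 TPM, and Sema4g, another Plxnb2 ligand, was the lowest at 7.44 and 7.57 TPM. Exons of Sema4c overlap those of D430040D24Rik on the other strand over 334 bases. That gene was at 1.31 and 1.22 TPM, and with no strand setting given, reads in the overlap cannot be told apart.

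Classes 5, 6 and 7 completed the ligands. Sema5b stood at 26.2 TPM in replicate 1 and 28.3 TPM in replicate 2, and Sema5a, whose protein likewise carries thrombospondin repeats, at 7.78 and 9.54 TPM. Class 6, transmembrane ligands that can also signal as receptors, ranged over its members from 11.5 to 26.4 TPM on average, with a sum of 86.3 ± 0.417 TPM (SD, n = 2), 12.9% of the family, and a median of 24.2 TPM. Sema6c stood at 27.9 and 25.0 TPM, Sema6d at 23.8 and 25.6 TPM, Sema6a, which guides thalamocortical axons, at 23.2 and 24.2 TPM and Sema6b at 11.8 and 11.2 TPM. The order of Sema6c and Sema6d differed between the pools. Sema7a, an axon growth-promoting ligand that acts through integrins, was at 2.15 and 2.04 TPM.

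The order of single genes was only partly the same in the pools. Ranked by mean TPM, the 31 genes give 30 neighbouring pairs, of which 18 had the same order in both libraries and 12 turned. The top runs Plxnb2, Nrp1, Plxna2, Plxna3, Sema4c, Plxna1 and Sema3c, and by gene TPM this order held in both libraries. From Sema3c to Sema6d, at means between 24.7 and 27.9 TPM, each neighbour pair of Sema3c, Sema5b, Nrp2, Sema6c and Sema6d turned. The next that turned were Sema4b with Plxnb1, then Sema3a with Sema4a, Sema4a with Sema4d and Sema4d with Sema4f. Sema3f with Sema6b, Plxnd1 with Sema4g, Sema7a with Sema3b and Sema3b with Sema3e turned as well.

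Part of the gene level came from transcripts not annotated as protein-coding. Over the 28 members at a mean of 1 TPM or more, the median protein-coding share of TPM was 85.0%, beside 98.1% over 13217 protein-coding genes at that level. Among all 31 members, 12 had a share under 80% and 10 had 100%, counts that were not set beside other genes. Of those at 100%, all but Plxnd1 have only transcripts typed as protein-coding, which fixes their share. By reads the members' median share was 96.1%, since short transcripts gain more TPM per read. By TPM the shares were lowest for Sema6c, at 41.5% of TPM and 56.7% of reads, for Plxnb2, at 52.2% and 90.5%, for Plxna3, at 53.1% and 89.7%, and for Sema3f, at 53.9% and 76.2% (means of the 2 libraries). By reads they were lowest for Sema6c, for Plxnb3 at 61.1%, for Sema4g at 75.0% and for Sema6a at 76.0%.

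For Plxnb2 a single short transcript made most of this difference. Plxnb2-205, a processed transcript of 3 exons at the 3′ end of the gene (chromosome 15, 89155549 to 89156572), was given 38.6 TPM in replicate 1 and 39.04 TPM in replicate 2, or 43.0% and 42.3% of the gene's TPM. It took 671 and 623 reads, or 8.66% and 8.80% of the gene's reads. In GENCODE M21, all 834 bases of it lie within exons of the main coding transcript Plxnb2-202, and 180 of them lie in its coding part. The models used for the deposited values differ in length from these for both transcripts, so the overlap there was not measured. Counting only protein-coding transcripts, Nrp1 was the highest member at 67.7 TPM, then Plxna2 at 53.3, Plxnb2 at 47.6, Sema4c at 30.7, Plxna1 at 29.6 and Plxna3 at 28.7 TPM. Nrp1 has a single annotated transcript, which is protein-coding, so its level could not fall by this measure. The log2 ratio of Plxnb2 over Nrp1 was 0.43 ± 0.01 by gene TPM and -0.51 ± 0.03 by protein-coding TPM (SD, n = 2), and Plxnb2 over Plxna2 was 0.55 ± 0.05 and -0.16 ± 0.08. The place of Plxnb2 at the top thus rested on the short transcript, while Plxnb2 above Plxnb1 did not: that ratio of Plxnb1 over Plxnb2 was -1.50 ± 0.13 by protein-coding TPM.

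**Figure D3:**
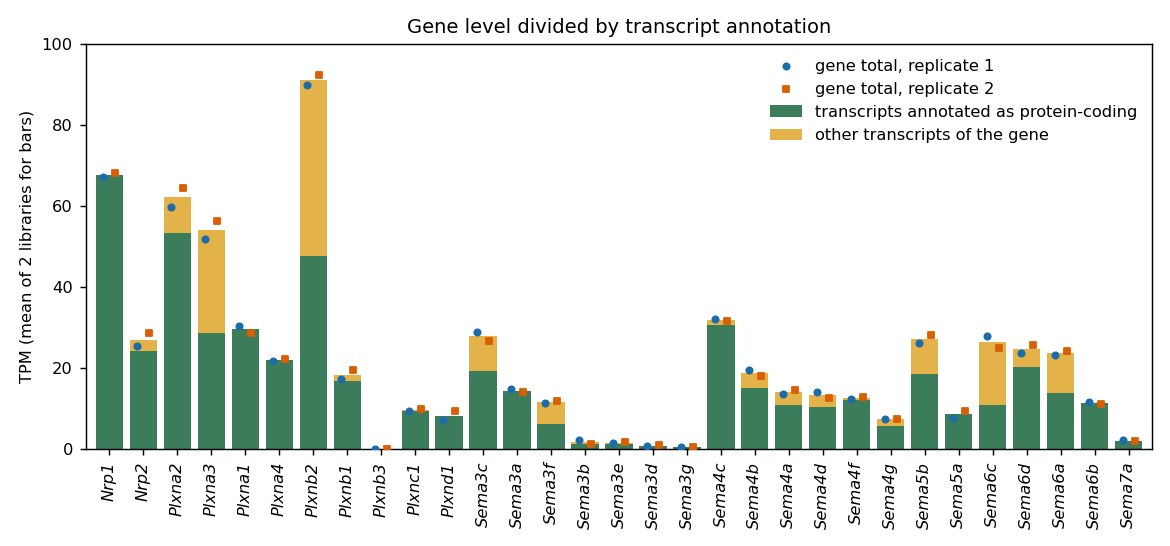
Mean TPM of each gene over the 2 libraries, as bars from 0 divided into transcripts annotated as protein-coding (green) and others (yellow), with gene totals of replicate 1 (circles) and replicate 2 (squares). The yellow part is largest for Plxnb2, where protein-coding transcripts reach 47.6 TPM, and Nrp1 has none.

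All 31 main transcripts, those with the highest mean share of their gene, were protein-coding. In 14 members the main transcript held under 60% of the gene in at least 1 library: Sema3b, Sema3f, Sema4a, Sema4c, Sema4d, Sema4g, Sema5b, Sema6a, Sema6c, Sema6d, Plxna3, Plxnb2, Plxnb3 and Nrp2. The share of other genes under this cut was not counted, so the number describes no trait of the family. A gene with a single annotated transcript cannot fall under the cut. Sema4c was divided among coding forms: Sema4c-201 held 31.5% in replicate 1 and 35.9% in replicate 2, while 96.6% of its TPM was protein-coding. Sema6d-208 held 30.6% and 29.4%, and Sema4a-214 held 40.8% and 26.1%. The highest transcript differed between the pools in 3 members, Sema3b, Sema6a and Plxnb3. Sema6a-202 held 19.1% and 29.7% of its gene, and Sema3b-205 held 30.8% and 12.9%. Nrp1, Plxna4, Sema3d, Sema3g, Sema5a and Sema7a have a single transcript in the files.

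Receptors exceeded their ligands in most of the listed pairs. Of 23 pairs, formed from all 11 receptors and 17 of the semaphorins, the receptor was above the ligand in both libraries in 20 and the ligand above the receptor in both in 2. In 1 pair the order differed. The pairs were listed with earlier results of these data known, and the count depends on which pairs were listed. Plxnd1, for example, was paired only with Sema3e. The pairs share genes, so they are not independent. Over all members the median receptor was already 2.10-fold above the median semaphorin. The count of 20 was not compared with other pairings of these receptors and semaphorins. The ratio exceeded its SD in 21 of 23 pairs. These are ratios of RNA in whole tissue, in which the receptor and its ligand may be made by different cells.

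Among the neuropilin pairs, Nrp1 stood at 67.2 and 68.2 TPM, against 14.9 and 14.03 TPM for Sema3a, a log2 ratio of 2.23 ± 0.08 (SD, n = 2), or 4.68-fold. Nrp1 over Sema3d gave the largest ratio of all pairs, 6.30 ± 0.26, or 79.0-fold. Nrp2 over Sema3g gave 5.85 ± 0.01, over Sema3b 3.91 ± 0.62 and over Sema3f 1.21 ± 0.06. Nrp2 over Sema3b was 3.11 by posterior mean TPM, and Nrp2 over Sema3f was 1.95 by protein-coding TPM and 2.56 without length correction. Nrp2 and Sema3c did not differ beyond the spread by gene TPM, at log2 ratios of -0.19 in replicate 1 and 0.10 in replicate 2. By protein-coding TPM this ratio was 0.19 and 0.50, and without length correction it was 0.35 on average. By gene TPM, ratios of the neuropilins thus ran from near equality with Sema3c to large ones against the weakly expressed class 3 genes.

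Among the plexin-A pairs, Plxna3 exceeded Sema5a by 2.65 ± 0.13 and Sema3f by 2.21 ± 0.03 on the log2 scale (SD, n = 2). By protein-coding TPM the ratio of Plxna3 over Sema5a was 1.73, and without length correction it was 1.24. Plxna1 exceeded Sema5a by 1.78 ± 0.27, Plxna2 exceeded Sema6a by 1.39 ± 0.03, and Plxna3 exceeded Sema5b by 0.99 ± 0.00. Plxna4 exceeded Sema6b by 0.94 ± 0.07 and Sema3a by 0.60 ± 0.09, and Plxna1 exceeded Sema6d by 0.26 ± 0.14. Plxna1 over Sema5b, at 0.12 ± 0.14, was within the spread by gene TPM but not by protein-coding TPM, at 0.79 in replicate 1 and 0.57 in replicate 2. Plxna4 stood slightly below Sema6a, at 21.7 and 22.2 TPM against 23.2 and 24.2 TPM, a log2 ratio of -0.11 ± 0.02 by gene TPM, but above it at 0.67 when only protein-coding transcripts were summed. Plxna4 has a single annotated transcript, which is protein-coding, so only the level of Sema6a could fall in that sum.

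Among the other pairs, Plxnb2 stood at 89.9 and 92.3 TPM, against 32.01 and 31.55 TPM for Sema4c, a log2 ratio of 1.52 ± 0.04 (SD, n = 2) that was 0.63 by protein-coding TPM. Plxnb2 exceeded Sema4g by 3.60 ± 0.01. Plxnb1 exceeded Sema4d by 0.46 ± 0.24 and Sema4a by 0.38 ± 0.04. Plxnd1 exceeded Sema3e by 2.33 ± 0.11 and Plxnc1 exceeded Sema7a by 2.21 ± 0.12. Plxnb3 stood far below its ligand Sema5a, at 0.12 and 0.13 TPM against 7.78 and 9.54 TPM, a log2 ratio of -6.11 ± 0.13. The ratio was -7.00 by protein-coding TPM and -5.55 by posterior mean TPM, with only 15 and 14 reads for Plxnb3. At the ratio of -6.11 Sema5a was 69.0-fold above Plxnb3, while its other listed receptors, Plxna1 and Plxna3, were above Sema5a.

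**Figure D4:**
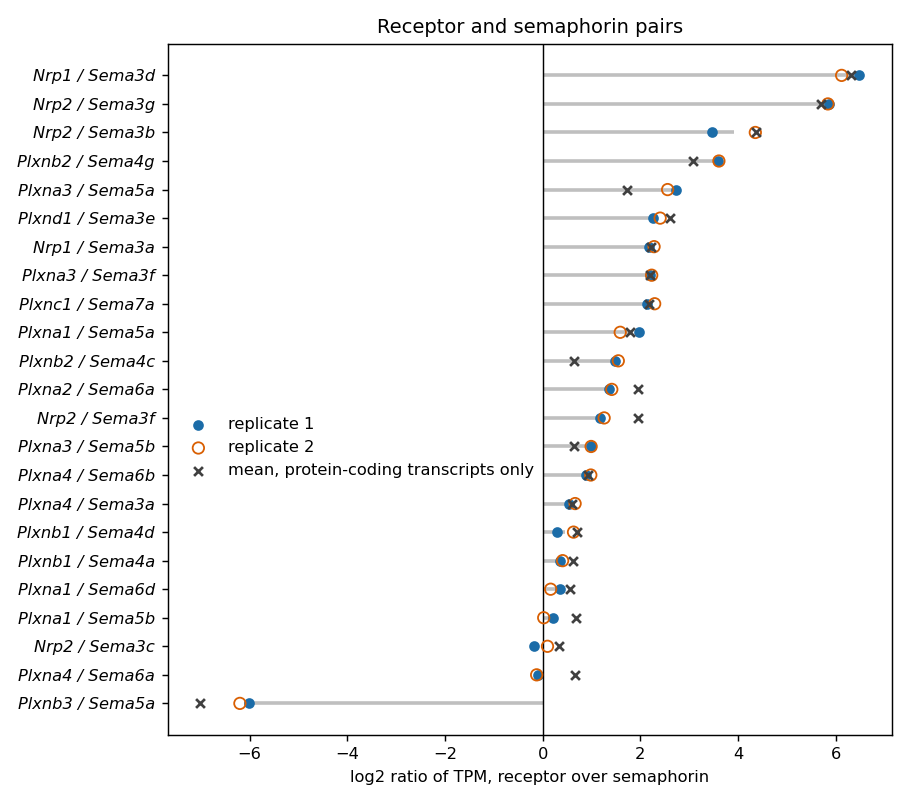
The log2 ratio of TPM, receptor over semaphorin, for the 23 listed pairs in replicate 1 (filled points) and replicate 2 (open circles), with grey bars to the mean and crosses for the mean ratio from protein-coding transcripts only. The receptor is above the ligand in both libraries in 20 pairs, and Plxnb3 with Sema5a stands alone far to the left at -6.11.

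Genes listed for carrying the signal inside the cell were detected. Of 22 signalling genes, 22 were at 1 TPM or more in both libraries and 15 at 10 TPM or more, beside 60.6% and 40.9% of protein-coding genes. Their median was 53.6 TPM. The 3 highest were collapsin response mediators, which link plexin signalling to microtubules. Dpysl2 stood at 1108 TPM in replicate 1 and 1060 TPM in replicate 2, Dpysl3 at 799 and 800 TPM and Crmp1 at 644 and 659 TPM. The other family members on the list were lower, Dpysl5 at 178 and 186 TPM and Dpysl4 at 92.6 and 94.1 TPM. Rac1, the GTPase bound by plexins, stood at 247 and 241 TPM, and the kinase gene Fes was the lowest at 1.77 and 1.99 TPM. Gipc1, which binds the neuropilin tail, stood at 132 and 136 TPM. The plexin-B exchange factors were at 18.2 and 18.4 TPM for Arhgef11 and 8.11 and 7.72 TPM for Arhgef12.

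Of 12 co-receptors and other semaphorin receptors, 11 were at 1 TPM or more in both libraries and 7 at 10 TPM or more, beside the same 60.6% and 40.9%. Their median was 27.6 TPM. Cntn2, an adhesion molecule of axons, was the highest at 96.7 TPM in replicate 1 and 114 TPM in replicate 2. Itgb1, an integrin subunit through which Sema7a acts, stood at 77.8 and 73.2 TPM. Itga1, the other integrin subunit on the list, stood at only 3.64 and 3.85 TPM. The proteoglycan gene Sdc3 stood at 70.4 and 70.9 TPM, and L1cam, a partner of Nrp1 for Sema3a, at 55.2 and 64.9 TPM. Timd2, a Sema4a receptor of immune cells, was the lowest at 0.05 and 0.08 TPM, from 2 and 3 reads.

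Between the pools the members differed about as often as other genes. After trimmed-mean scaling of the counts, 1 of 31 members differed by more than 1.5-fold, beside 11.3% of 19165 genes whose counts summed to at least 10 and 4.21% of 15180 genes at a mean of 1 TPM or more. Past an absolute log2 ratio of 0.32 there were 3 members, beside 11.3% of genes at a mean of 1 TPM or more. The median absolute log2 ratio was 0.107 over the members and 0.0866 over genes at a mean of 1 TPM or more. By direction, 9 members were higher and 22 lower in replicate 1, a split that was not counted over other genes. The median log2 ratio with its sign was -0.05 over the members and -0.0002 over the 19165 genes. The counting intervals given below cover counting error only, and a pool is a single library.

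Sema3b was higher in replicate 1, with 120 reads, than in replicate 2, with 71 reads, at a log2 ratio of 0.61 (95% counting interval 0.18 to 1.06). With spike-in scaling its log2 ratio was 0.41, under 1.5-fold. Choroid plexus markers moved the same way: 4 of 4 were higher in replicate 1 and their sum was 806 TPM in replicate 1 and 356 TPM in replicate 2, with Ttr at 761 and 331 TPM. Kl was the lowest at 0.26 and 0.23 TPM, from 30 and 25 reads, and its counting interval included 0. Oligodendrocyte lineage markers were likewise higher in replicate 1 in 6 of 6 genes, with a median log2 ratio of 0.21, though the counting intervals of Pdgfra and Mag included 0. The part of either list in the Sema3b difference was not tested.

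Plxnd1 was lower in replicate 1, at a log2 ratio of -0.43 (-0.55 to -0.32), and so were Sema3d, at -0.41 (-0.78 to -0.04), and Sema5a, at -0.31 (-0.40 to -0.23). With spike-in scaling Plxnd1, at -0.63, and Sema3d, at -0.61, passed 1.5-fold. Endothelial markers were lower in replicate 1 for 5 of 6 genes, with sums of 140 TPM in replicate 1 and 149 TPM in replicate 2 and a median log2 ratio of -0.12. Of these 5, the counting intervals of Esam, Cdh5 and Tek included 0. The median log2 ratio was -0.15 over 4 meningeal and mesenchymal markers, 1 of them higher in replicate 1, and -0.19 over 5 telencephalic markers, 2 of them higher in replicate 1. Among the meningeal and mesenchymal markers lower in replicate 1, the counting interval of Foxc1 included 0. The thalamic genes Tcf7l2, Lhx9 and Gbx2, a list chosen with these data known, were all lower in replicate 1, with sums of 103 and 140 TPM and a median log2 ratio of -0.46. The part of any of these lists in the differences was not tested.

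**Figure D5:**
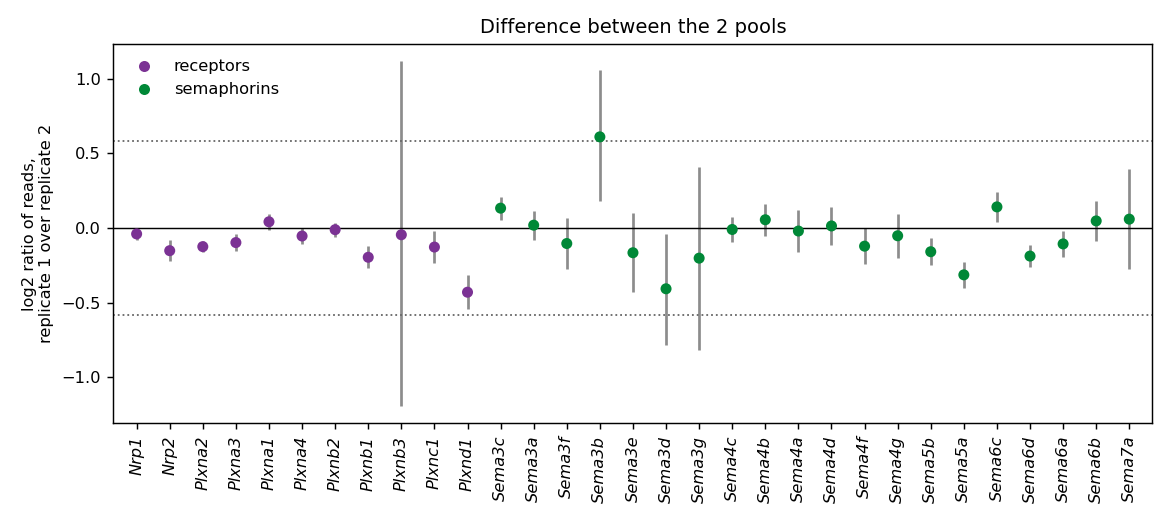
The log2 ratio of scaled reads, replicate 1 over replicate 2, for each gene, receptors in purple and semaphorins in green, with 95% counting intervals as lines and dotted lines at 1.5-fold. Sema3b at 0.61 is the only point beyond the dotted lines, and Plxnb3, with 15 and 14 reads, has the widest interval.

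Promoter sequence was compared for the members whose RefSeq start lay close to the main transcript. Of 26 members in the promoter table (RefSeq, GRCm38.p6), 23 had a start within 300 bases of that of the main coding transcript. In windows of 300 bases, 250 before and 50 after the start, 15 of the 23 had a ratio of observed to expected CG dinucleotides over 0.6, beside 49.1% of 20150 promoters of protein-coding genes. The median count of CG was 23, with a range of 4 to 37, beside 14 over those promoters. The letters TATAAA, searched on both strands, were in 0 of the 23 windows and in 12.1% of those promoters. The 250 bases before the start are shown for the plexin-B genes at the ends of the range of levels, Plxnb2 and Plxnb3, in the direction of transcription with each CG in capitals.
Plxnb2, minus strand, chr15:89180789-89181038: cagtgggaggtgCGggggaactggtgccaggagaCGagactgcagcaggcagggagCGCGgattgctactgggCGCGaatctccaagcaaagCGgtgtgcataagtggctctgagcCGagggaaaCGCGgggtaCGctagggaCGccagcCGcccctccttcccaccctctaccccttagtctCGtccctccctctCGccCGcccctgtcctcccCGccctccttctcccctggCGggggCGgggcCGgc
Plxnb3, plus strand, chrX:73756853-73757102: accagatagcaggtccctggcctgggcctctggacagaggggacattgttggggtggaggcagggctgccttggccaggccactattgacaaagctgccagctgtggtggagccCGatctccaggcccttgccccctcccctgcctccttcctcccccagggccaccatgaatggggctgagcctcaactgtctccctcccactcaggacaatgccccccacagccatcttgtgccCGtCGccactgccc
The Plxnb2 stretch holds 20 CG and the Plxnb3 stretch 3, at 69.2% and 65.2% GC. This contrast did not extend to the whole set: 10 of 14 members at a mean of 10 TPM or more were over the ratio of 0.6 and 5 of 9 below that level were, with median CG counts of 24 and 23. Sema4a, at a mean of 14.1 TPM, had 4 CG in its window of 300 bases, as many as Plxnb3. A match or its absence here describes letters in this window only.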

How the data were processed

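Forebrain RNA of 2 pools was measured, and each library has a table of genes and a table of transcripts. Values refer to mm10 and GENCODE M4, per the file headers and accompanying notes. Aligner, quantifier and strand setting are not named there or in the labels. A manual linked in the labels is for a cDNA kit primed at poly(A) tails (SMARTer Ultra Low), although the material is labelled total RNA, and which priming was used is not given. The authors deposited expected counts, which estimate the reads of each gene and transcript and were rounded here for the pool ratios. The deposited TPM values correct these for effective length, as maximum-likelihood and posterior mean estimates, and the percent column deposited for transcripts is the share within the gene. The deposited bounds of TPM are the interval values quoted for Nrp2. Protein-coding levels were summed over transcripts typed in GENCODE M21, in which 169 of 185 member transcripts had the same length.

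Symbols were joined by identifier for 42462 of 43346 genes. Pool ratios used TMM factors (edgeR 4.0.16, R 4.3.3) after adding 0.5 reads, for genes whose counts summed to at least 10, and the step was tested on simulated data. DESeq2 1.42.0 size factors and spike-in totals were alternatives. Poisson intervals of 95% and floors of 3 counts cover counting error only. Replicates are separate pools of embryos. The members were taken by family, but the choice of this family, the pairs and the other gene lists was made with earlier results of these data known. All 31 members are named, and of the signalling and co-receptor lists the 4 highest and the lowest, with Gipc1, Arhgef11, Arhgef12 and Itga1 named for their roles. Other values used Python 3.11.15 with pandas 2.3.3, numpy 2.4.6, scipy 1.17.1 and matplotlib 3.10.9.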

Additional observations from a re-analysis of the deposited data

How the results depend on the processing

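The median difference of receptors over semaphorins, 1.07 on the log2 scale, stayed positive under each alternative run. It was 0.93 with posterior mean TPM, 2.19 with library-scaled counts without length correction, where long plexin transcripts gain, and 0.97 to 1.16 with either library left out. The count of 28 members at 1 TPM ran from 26 at a threshold of 2 TPM to 29 at 0.5 TPM, and was 27 for protein-coding transcripts and 28 with either library left out. The 20 pairs with the receptor above became 19 with posterior mean TPM, 22 with protein-coding transcripts, 22 without length correction and 20 to 21 with either library left out. Without length correction 19 of the 23 pair ratios kept their sign but moved by more than the SD. Nrp2 over Sema3c was -0.19 without replicate 2 and turned to 0.10 without replicate 1, 0.34 for protein-coding transcripts and 0.35 without length correction, and Plxna4 over Sema6a turned to 0.67 and 1.57 under the last 2 settings. The cause was not tested. Of members over 1.5-fold between pools, 1 became 2 with spike-in scaling, which moved the median of all genes by -0.20: Sema3b fell short at 0.41, while Plxnd1 at -0.63 and Sema3d at -0.61 passed, and 3 passed at an absolute log2 ratio of 0.32. No paired analysis was possible because there is 1 group. With 2 pools the SD is itself loosely known, and at 15 and 14 reads the isoforms of Plxnb3 could not be resolved.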
